A study of Mus musculus with 16 samples.

Results

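The response of the colon epithelium to dextran sulfate sodium (DSS) was examined in mice that had active secretory IgA (SIgA) but no passive SIgA. These were Pigr+/- offspring of Pigr-/- dams on the C57BL/6 background, 70 days old and gender-matched. The animals received no SIgA in their mother's milk, but carried 1 working copy of Pigr and could transport their own IgA into the gut. The comparison used 4 of the 16 arrays of the study: 2 arrays from mice given 2% DSS in the drinking water for 8 days, which the labels describe as having colitis, and 2 arrays from untreated mice. Both groups held 6 mice, and each array carried RNA pooled from 3 of them, taken from isolated colonic epithelial cells. The members were chosen by genotype of dam and offspring as given in the labels, with no use of the measured values. The other 12 arrays, 4 for each of the combinations of passive and active SIgA, passive SIgA only (Pigr-/- offspring of Pigr+/- dams) and neither (Pigr-/- offspring of Pigr-/- dams), entered the fit as further groups. The mice with both had Pigr+/- dams and were Pigr+/- themselves, so no group of the study was Pigr+/+. Since passive SIgA was set by the genotype of the dam, effects of the milk antibody and of the dam cannot be told apart.

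Pigr is the epithelial receptor that binds polymeric IgA below the epithelium and releases it into the lumen as SIgA, which coats bacteria and keeps them from the mucosa. DSS is a sulfated polysaccharide that damages the colonic epithelium and lets luminal bacteria reach it. Injured colon epithelium is known to secrete antimicrobial lectins and reactive oxygen and nitrogen species, to release chemokines that draw in neutrophils and monocytes, and to lose functions of the mature colonocyte such as ion transport.

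Intensities were on the log2 scale of RMA, on which a difference of 1 is a doubling, and 19939 genes were tested. Array medians over all probe sets ran from 6.678 to 6.825. Over the genes tested, the median was highest in untreated pool 1, at 7.152. It was 7.0 in untreated pool 2, 7.013 in both DSS pools, and 6.904 to 7.086 in the other 12 arrays. Pigr, the gene that defines the groups, was at 12.46 and 12.44 in the DSS pools and 12.34 and 12.18 in the untreated pools (change 0.18 ± 0.10, adjusted p = 0.479), against 11.34 to 11.70 in the 8 arrays of Pigr-/- mice. The probe set thus still gave signal in Pigr-/- mice, and no source used here says which part of the gene was deleted. All 15 genes of a list of epithelial markers stood above the array median on the 4 arrays, with a mean level of 12.31 and 12.39 after DSS and 12.31 and 12.32 in untreated mice. The 2 untreated pools were less alike than the pools of any other group. Their difference had a standard deviation over genes of 0.346, against 0.211 between the DSS pools and 0.187 to 0.317 in the other 6 groups. Untreated pool 1 stood apart from the rest of the comparison on the first principal component of all 16 arrays, which held 34.1% of the variance. It lay at -32.2, whereas the DSS pools lay at 13.0 and 3.4 and untreated pool 2 at -2.8. The other arrays in its neighbourhood were both untreated arrays of mice with passive and active SIgA, at -33.5 and -35.2. Results are therefore also given without untreated pool 1. Each p-value rests on how far pools of 3 mice differ, since single mice were not measured.

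After DSS, the genes that rose included the antimicrobial lectins Reg3g and Reg3b, the interleukin-1 family members Il1f9, Il1b and Il1a, the chemokines Ccl3 and Cxcl2, and Nos2 and Duox2, which make reactive nitrogen and oxygen, while the pentraxin Mptx1, the channels Best2 and Ano1 and the sugar phosphate exchanger Slc37a2 were among those that fell. Of 19939 genes, 199 passed an adjusted p under 0.05 (0.998%), of which 124 were higher (0.622%) and 75 lower (0.376%) after DSS. The increases were larger than the decreases: 63 genes rose by over 2-fold and 20 by over 4-fold, whereas 18 fell by over 2-fold and 1, Mptx1, by over 4-fold. The median change was 1.05 among the genes called higher and -0.73 among those called lower, and the median over all genes tested was -0.06. In each of the 199 genes both DSS pools lay on the same side of both untreated pools. Over all genes tested, both DSS pools lay above both untreated pools in 15.2% and below them in 23.1%. An unadjusted p under 0.05 was reached by 2558 genes.

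The number of calls depended on the arrays. Leaving out 1 of the 4 arrays could not reverse the direction of any of the 199, since their DSS and untreated pools did not overlap. Such a fit keeps 1 array in the group concerned, so the gap between its 2 pools no longer enters the spread. Without untreated pool 1, 81 genes passed (57 higher and 24 lower, 0.406% of all), and 72 of the 199 were among them. Without untreated pool 2, 672 passed, without DSS pool 1, 64, and without DSS pool 2, 112. The sign of the change was the same in all 199 genes whichever of these 4 arrays was left out, and 39 genes, 32 higher and 7 lower, passed in all 4 of these fits. Those with the largest changes were Clca4b, Reg3g, Reg3b, Srgn, Ccl3, Il1f9, Acod1, Retnlb and Cxcl2 on the higher side, and Tppp3, Nxpe2, Best2, Slc37a2 and Ano1 on the lower side. Centring each array on its median changed the balance of calls to 75.0% higher (135 higher and 45 lower), against 62.3% higher as deposited.

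**Figure D1:**
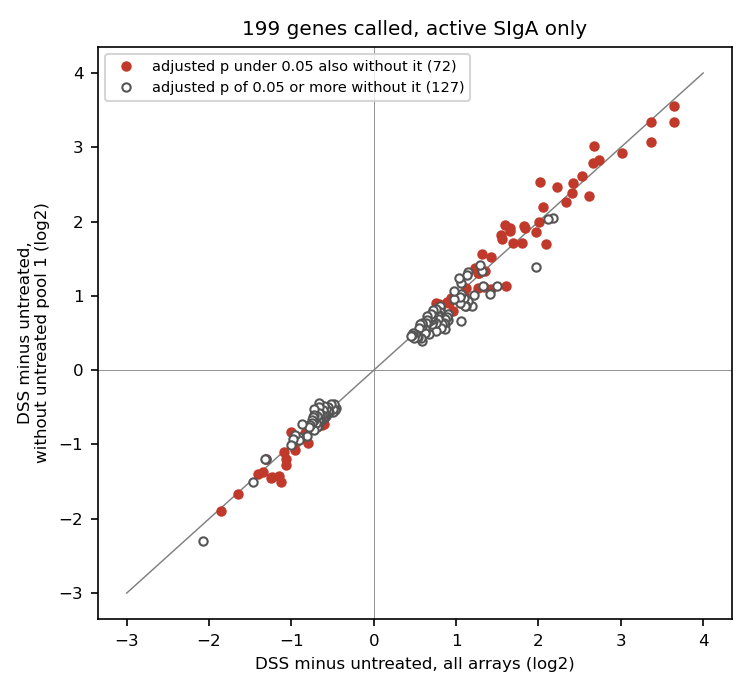
Change after DSS (DSS minus untreated, log2) of the 199 genes called with active SIgA only, from all arrays on the horizontal axis and without untreated pool 1 on the vertical axis; the diagonal marks equal values. All points lie in the lower left or upper right quadrant, the 72 genes that also passed without this array are filled, and those that did not are open.

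After Clca4b, a transport gene, the highest changes were those of 2 secreted lectins. Reg3g, a C-type lectin that kills Gram-positive bacteria, was at 12.33 and 12.30 in the DSS pools and at 8.59 and 8.76 in the untreated pools, a rise of 3.64 ± 0.36 (12.5-fold, adjusted p = 0.000234). Its relative Reg3b was at 13.21 and 13.14 after DSS and at 9.76 and 9.84 in untreated mice (3.37 ± 0.23, 10.4-fold, adjusted p = 1.98e-05). For both lectins the pools of a group lay within 0.2 of each other, and the DSS pools were far above the untreated ones. The upstream sequences of these 2 genes, and of 2 signalling genes that rose with them, are shown because each holds a motif of a factor known to act in inflamed epithelium. The 250 bases before the start of the gene are from RefSeq (GRCm38.p6), and capitals mark the motif, which is the kappa B motif of NF-kB in Reg3g (chr6:78468875-78469124, minus strand, 123 bases before the start) and Cxcl2 (chr5:90903649-90903898, plus strand, 97 bases before the start) and TTCNNNGAA, the motif of STAT factors, in Reg3b (chr6:78370635-78370884, plus strand, 129 bases before the start) and Il1f9 (chr2:24186226-24186475, plus strand, 128 bases before the start).
Reg3g: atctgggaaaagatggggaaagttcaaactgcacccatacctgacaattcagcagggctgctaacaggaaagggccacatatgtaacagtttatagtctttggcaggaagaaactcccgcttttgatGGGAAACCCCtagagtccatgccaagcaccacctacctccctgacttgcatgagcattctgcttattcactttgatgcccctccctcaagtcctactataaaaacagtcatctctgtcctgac
Reg3b: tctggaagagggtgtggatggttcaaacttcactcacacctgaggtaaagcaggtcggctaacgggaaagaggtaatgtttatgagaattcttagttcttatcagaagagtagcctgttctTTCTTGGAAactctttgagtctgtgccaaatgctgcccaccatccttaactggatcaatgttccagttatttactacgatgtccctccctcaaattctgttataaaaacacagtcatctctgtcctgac
Il1f9: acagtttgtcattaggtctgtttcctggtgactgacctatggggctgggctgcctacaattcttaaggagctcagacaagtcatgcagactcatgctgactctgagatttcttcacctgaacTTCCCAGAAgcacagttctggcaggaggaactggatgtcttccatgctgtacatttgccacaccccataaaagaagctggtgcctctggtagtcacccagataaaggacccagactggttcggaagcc
Cxcl2: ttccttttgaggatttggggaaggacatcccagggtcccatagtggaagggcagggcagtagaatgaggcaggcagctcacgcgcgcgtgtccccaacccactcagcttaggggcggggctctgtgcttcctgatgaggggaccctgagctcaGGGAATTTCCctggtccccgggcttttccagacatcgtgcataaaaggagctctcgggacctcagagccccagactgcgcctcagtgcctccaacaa
The kappa B letters searched were GGGRNYYYCC, where R is A or G, Y is C or T and N is any base. In Reg3g they match on the strand opposite to the one printed. Both motifs were searched on both strands in the 15563 of 19939 genes with a promoter sequence. The kappa B motif was in 8.51% of the genes called higher (8 of 94), in 6.78% of those called lower (4 of 59) and in 5.38% of all. The STAT motif was in 12.8% of those called higher (12 of 94), in 6.78% of those called lower (4 of 59) and in 6.71% of all. A match says only that the letters are there.

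Of the 33 measured genes of antimicrobial defence, 10 rose (30.3%), 1 fell (3.03%) and 22 did not pass. Over all genes tested 0.622% were called higher and 0.376% lower, and the same shares apply to the lists below. Where a list had 1 call, that call made up 2.33% to 7.14% of the list. The lists were chosen with earlier results of these data known. The median change in antimicrobial defence was 0.18 against -0.06 over all genes (0.28 against 0.00 without untreated pool 1). Retnlb, a goblet cell protein that acts on bacteria and in defence against worms, was at 11.23 and 11.17 after DSS and 8.68 and 8.41 in untreated mice (2.66 ± 0.24, 6.31-fold, adjusted p = 0.000118). Nos2, the inducible nitric oxide synthase, was at 9.56 and 9.72 in the DSS pools and 7.19 and 7.26 in the untreated pools (2.41 ± 0.15, 5.32-fold, adjusted p = 1.28e-05). In both genes the pools of a group were close together and the groups far apart. Duoxa2, the maturation factor of the hydrogen peroxide producing oxidase Duox2, was at 11.35 and 11.80 after DSS and 9.09 and 9.88 in untreated mice (2.09 ± 0.24, adjusted p = 0.000821), and Duox2 itself rose by 1.60 ± 0.24 (adjusted p = 0.00606). Here the untreated pools differed from each other, with pool 1 the lower, and the groups did not overlap. Pla2g2a, a phospholipase that breaks bacterial membranes, was at 8.81 and 8.47 after DSS and 6.61 and 6.65 in untreated mice (2.01 ± 0.16, 4.03-fold, adjusted p = 4.16e-05), and its relative Pla2g5 rose by 0.91 ± 0.14 (adjusted p = 0.00627). The other 2 that rose were Wfdc18, a whey acidic protein family member, by 2.53 ± 0.21 (adjusted p = 6.86e-05), and Sprr2h, a small proline-rich protein of barrier epithelia, by 1.33 ± 0.25 (adjusted p = 0.0209). The 1 that fell was Mptx1, a pentraxin found in the mouse gut, at 9.92 and 9.0 after DSS and 11.31 and 11.75 in untreated mice (-2.07 ± 0.41, 4.20-fold lower, adjusted p = 0.0333). Ang4, a microbicidal ribonuclease, was at 6.63 and 6.45 after DSS and 6.95 and 7.02 in untreated mice, which did not pass (adjusted p = 0.338). Reg3g, Reg3b, Retnlb, Nos2, Duoxa2, Pla2g2a and Wfdc18 passed whichever of the 4 arrays was left out. Duox2 did not pass without DSS pool 2 (adjusted p = 0.071), Pla2g5 without either DSS pool (0.057 and 0.0591), Sprr2h without untreated pool 1 or either DSS pool (0.0916 to 0.178), and Mptx1 without any one of the 4 (0.056 to 0.234).

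**Figure D2:**
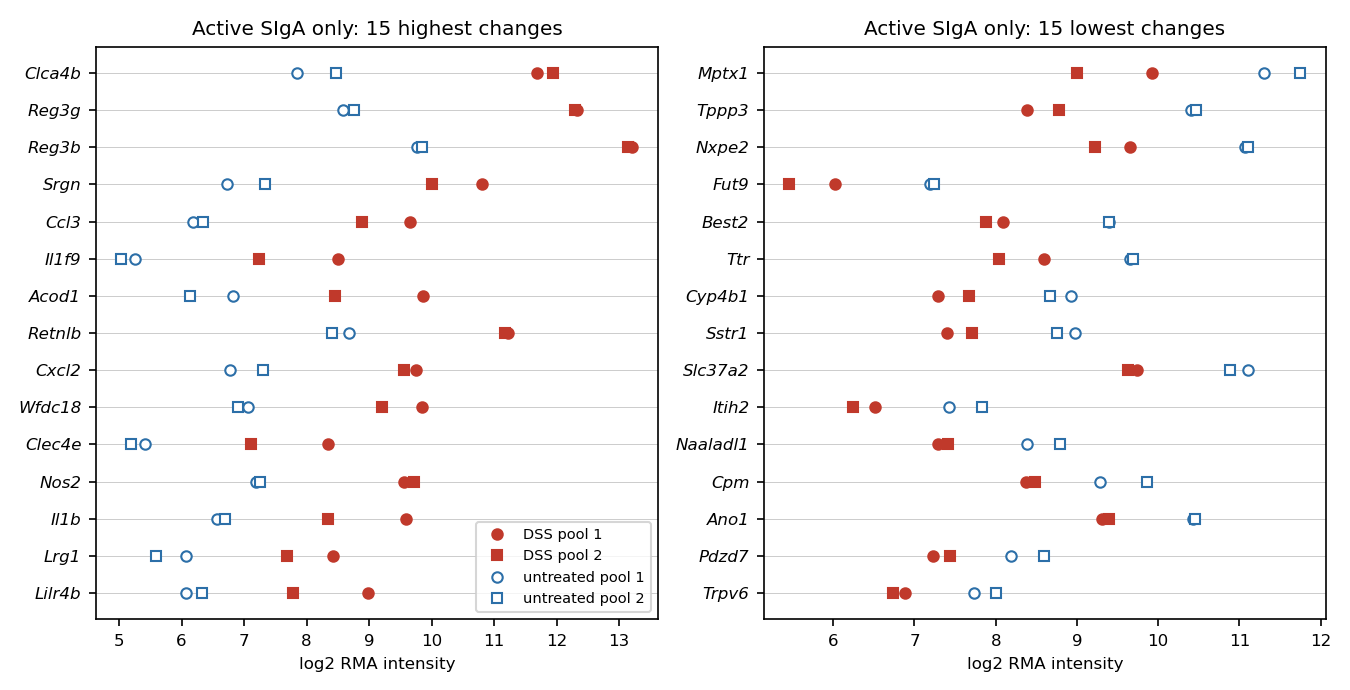
Intensity (log2, horizontal axis) of the 15 genes with the highest and the 15 with the lowest change among those past the threshold, in the 2 DSS pools (filled) and the 2 untreated pools (open) with active SIgA only; values are compared within a row only. In every row the filled and open symbols are separate; the DSS pools coincide for Reg3g, Reg3b, Retnlb and Nos2 and lie apart for Il1f9, Acod1, Clec4e, Il1b and Lilr4b, with pool 1 the higher.

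Acute phase genes rose in part. Of 20 measured, 5 rose (25.0%), none fell and 15 did not pass (median change 0.26). Lrg1, a secreted leucine-rich glycoprotein of inflammation, was at 8.43 and 7.69 after DSS and 6.07 and 5.59 in untreated mice (2.23 ± 0.34, adjusted p = 0.00606). Lbp, which hands bacterial lipopolysaccharide to its receptor, was at 8.57 and 8.52 after DSS and 7.32 and 6.60 in untreated mice (1.59 ± 0.24, adjusted p = 0.00569). Lcn2, which binds bacterial siderophores, was at 7.20 and 7.0 after DSS and 5.81 and 5.76 in untreated mice (1.32 ± 0.29, adjusted p = 0.0494). In each of these the groups were separate. Steap4, a metalloreductase, rose by 0.97 ± 0.21 (adjusted p = 0.0466) and Serpina3n, a protease inhibitor, by 0.72 ± 0.14 (adjusted p = 0.0333). None of the 5 passed without DSS pool 1 (0.0616 to 0.339), and Lcn2, Steap4 and Serpina3n did not pass without any one of the other 3 arrays either (0.062 to 0.274). Saa2, a serum amyloid, was at 6.38 and 6.27 after DSS and 5.91 and 5.94 in untreated mice (0.40 ± 0.11, adjusted p = 0.146).

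Among cytokines the rise was in the interleukin-1 family. Of 24 measured genes 3 rose (12.5%), none fell and 21 did not pass (median change 0.10, and 0.18 without untreated pool 1). Il1f9, also called interleukin-36 gamma, an epithelial alarmin, was at 8.50 and 7.24 in the DSS pools and 5.25 and 5.04 in the untreated pools (2.73 ± 0.35, 6.63-fold, adjusted p = 0.00179). Il1b was at 9.59 and 8.34 after DSS and 6.56 and 6.70 in untreated mice (2.34 ± 0.32, 5.05-fold, adjusted p = 0.00344). Il1a was at 8.29 and 7.19 after DSS and 5.66 and 5.88 in untreated mice (1.97 ± 0.28, 3.93-fold, adjusted p = 0.00436). All 3 had DSS pool 1 more than 1 above DSS pool 2, and both of these above the untreated pools. With 1 of the 4 arrays left out, the changes ran from 2.10 to 3.36 in Il1f9, 1.71 to 2.96 in Il1b and 1.42 to 2.52 in Il1a. A fit without 1 DSS pool cannot weigh the gap between the 2 DSS pools. Tnf was at 9.39 and 9.72 after DSS and 8.58 and 8.73 in untreated mice (0.90 ± 0.22, adjusted p = 0.0786), and Il6 at 4.79 and 4.94 after DSS and 3.98 and 4.19 in untreated mice (0.78 ± 0.20, adjusted p = 0.0912). Neither passed, although the pools did not overlap.

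Of 28 measured chemokines 2 rose (7.14%), both of which attract myeloid cells, none fell and 26 did not pass (median change 0.06). Ccl3, which attracts monocytes, was at 9.65 and 8.89 after DSS and 6.18 and 6.35 in untreated mice (3.01 ± 0.27, 8.04-fold, adjusted p = 0.000137). Cxcl2, a ligand of the neutrophil receptor Cxcr2, was at 9.75 and 9.56 after DSS and 6.78 and 7.31 in untreated mice (2.61 ± 0.20, 6.11-fold, adjusted p = 3.64e-05). Both were well separated between the groups and passed in all 4 fits that left out an array. Ccl20, which draws lymphocytes and dendritic cells to the epithelium, was at 10.31 and 10.54 after DSS and 9.65 and 9.55 in untreated mice (0.82 ± 0.24, adjusted p = 0.147). Ccl28, which attracts IgA plasma cells, was at 10.58 and 10.15 after DSS and 9.75 and 10.17 in untreated mice, with overlap of the groups (0.41 ± 0.20, adjusted p = 0.408). Of 13 genes of IgA transport and class switching none passed (median change -0.06, and 0.13 without untreated pool 1), and Igha, the constant part of the IgA heavy chain, was at 5.26 and 5.29 after DSS and 6.17 and 5.39 in untreated mice (-0.50 ± 0.29, adjusted p = 0.484).

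Among the listed receptors for microbial products the calls were those of 3 genes known from myeloid cells. Of 30 genes of pattern recognition and NF-kB signalling 3 rose, none fell and 27 did not pass (median change 0.25, and 0.15 without untreated pool 1). Clec4e, a receptor for fungal and mycobacterial glycolipids, was at 8.35 and 7.11 after DSS and 5.41 and 5.20 in untreated mice (2.42 ± 0.32, 5.36-fold, adjusted p = 0.00271). The related receptor Clec4d rose by 1.31 ± 0.22 (adjusted p = 0.0101), and Cd14, the co-receptor for lipopolysaccharide, by 1.10 ± 0.16 (adjusted p = 0.00569). Clec4e passed in all 4 fits that left out an array, Clec4d did not pass without DSS pool 1 (adjusted p = 0.115), and Cd14 not without DSS pool 1 or untreated pool 1 (0.0819 and 0.0578). Nlrp3, an inflammasome sensor, was at 7.06 and 6.31 after DSS and 5.89 and 5.64 in untreated mice, which did not pass (0.92 ± 0.24, adjusted p = 0.101).

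Part of the genes of antigen presentation through MHC class II rose, and no gene of the list of interferon-stimulated genes passed. Of 9 class II genes 3 rose (33.3%), none fell and 6 did not pass (median change 0.40). Cd74, the invariant chain, was at 9.12 and 8.54 after DSS and 7.32 and 6.30 in untreated mice (2.02 ± 0.33, 4.06-fold, adjusted p = 0.00918). H2-Ab1, a class II beta chain, was at 8.65 and 8.26 after DSS and 7.10 and 6.69 in untreated mice (1.56 ± 0.22, adjusted p = 0.004), and H2-Eb1 rose by 0.94 ± 0.13 (adjusted p = 0.00465). The groups did not overlap in these genes, and none of the 3 passed without DSS pool 1 (0.0583 to 0.138). Of 14 genes of class I loading and the immunoproteasome 1 rose, Psmb8, by 0.78 ± 0.15 (adjusted p = 0.0215), which passed only without untreated pool 2 among the 4 fits that left out an array (0.0327, against 0.0844 to 0.204). None of the 26 interferon-stimulated genes measured passed (median change 0.19, and -0.06 without untreated pool 1). The largest values in that list were those of Ido1, which degrades tryptophan, at 8.04 and 8.16 after DSS and 6.83 and 6.37 in untreated mice (1.5 ± 0.41, adjusted p = 0.119), and Iigp1, an interferon-induced GTPase, at 6.93 and 6.82 after DSS and 5.50 and 5.81 in untreated mice (1.22 ± 0.29, adjusted p = 0.0778).

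Some markers of myeloid cells were higher after DSS beside these results. Of 24 neutrophil markers measured 5 rose (20.8%), none fell and 19 did not pass, with a median change of 0.42. Their mean level was 6.81 and 6.55 after DSS and 6.18 and 5.97 in untreated mice. Srgn, the proteoglycan of storage granules, was at 10.80 and 10.01 after DSS and 6.73 and 7.34 in untreated mice (3.37 ± 0.24, 10.3-fold, adjusted p = 1.98e-05). Retnlg, a resistin-like protein of neutrophils, was at 6.32 and 6.14 after DSS and 4.86 and 4.89 in untreated mice (1.35 ± 0.20, adjusted p = 0.00606). Hdc, the histamine-producing enzyme, rose by 0.81 ± 0.15 (adjusted p = 0.0251), and Clec4d and Clec4e are the others. S100a8 and S100a9, abundant calcium-binding proteins of neutrophils, did not pass: S100a9 was at 7.72 and 6.93 after DSS and 6.13 and 6.41 in untreated mice (1.05 ± 0.28, adjusted p = 0.11), and S100a8 changed by 0.75 ± 0.18 (adjusted p = 0.07). The granule enzymes Elane (6.55 and 6.31 after DSS, 6.64 and 6.56 untreated) and Mpo (6.11 and 6.49 after DSS, 6.40 and 5.91 untreated) did not pass either (adjusted p = 0.597 and 0.767). Ly6g gave 12.31 and 12.76 after DSS and 12.07 and 12.40 in untreated mice (adjusted p = 0.442). This was near the mean level of the epithelial markers and far above that of the neutrophil list, in untreated mice too. Whether its probe set reports neutrophils was not tested.

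Of 26 monocyte and macrophage markers 4 rose (15.4%), none fell and 22 did not pass. The median change was 0.16 (0.29 without untreated pool 1). Their mean level was 6.67 and 6.49 after DSS and 6.25 and 6.03 in untreated mice. Acod1, which makes itaconate in activated macrophages, was at 9.86 and 8.46 after DSS and 6.83 and 6.14 in untreated mice (2.68 ± 0.36, 6.39-fold, adjusted p = 0.00306). Lilrb4a, an inhibitory receptor of myeloid cells, was at 8.67 and 7.95 after DSS and 6.41 and 6.11 in untreated mice (2.05 ± 0.25, adjusted p = 0.00156). Its close copy Lilr4b rose by 2.18 ± 0.32 (adjusted p = 0.00569), and probes may not tell such copies apart. Cybb, the phagocyte oxidase subunit, rose by 1.13 ± 0.22 (adjusted p = 0.0317), and Cd14 is the fourth. The pan-macrophage markers Adgre1 (5.52 and 5.26 after DSS, 5.58 and 5.02 untreated) and Csf1r (6.01 and 5.92 after DSS, 5.93 and 5.70 untreated) did not pass (adjusted p = 0.819 and 0.666), and both overlapped between the groups. In bulk RNA, more cells of a type and more RNA per cell cannot be told apart, and the part of myeloid cells in the cytokine, chemokine and receptor results was not tested. Srgn, Acod1 and Lilrb4a passed in all 4 fits that left out an array. Retnlg did not pass without DSS pool 1 (0.0781), Lilr4b without untreated pool 1 (0.053), and Hdc and Cybb passed only without DSS pool 2 (0.036 and 0.0267, against 0.0509 to 0.325).

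Markers of other cells gave no call. Among 23 T cell and innate lymphocyte, 20 B and plasma cell, 24 fibroblast, 16 smooth muscle, 18 endothelial and 15 neuron and glia markers none passed, with median changes of -0.15, -0.16, -0.06, -0.14, -0.12 and -0.10. These lists were higher in untreated pool 1 than in untreated pool 2. The first held 21 of 23 such genes, the fibroblast list 21 of 24 and the endothelial list 17 of 18, against 12100 of 19939 genes over the array. Without untreated pool 1 the 6 medians were 0.05, 0.03, 0.14, 0.01, 0.05 and 0.10. Col1a1, a collagen of fibroblasts, was at 7.49 and 7.82 after DSS and 8.10 and 7.57 in untreated mice, and Cd3e, part of the T cell receptor complex, at 6.74 and 6.87 after DSS and 7.16 and 6.69 in untreated mice, so that the groups overlapped in both.

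**Figure D3:**
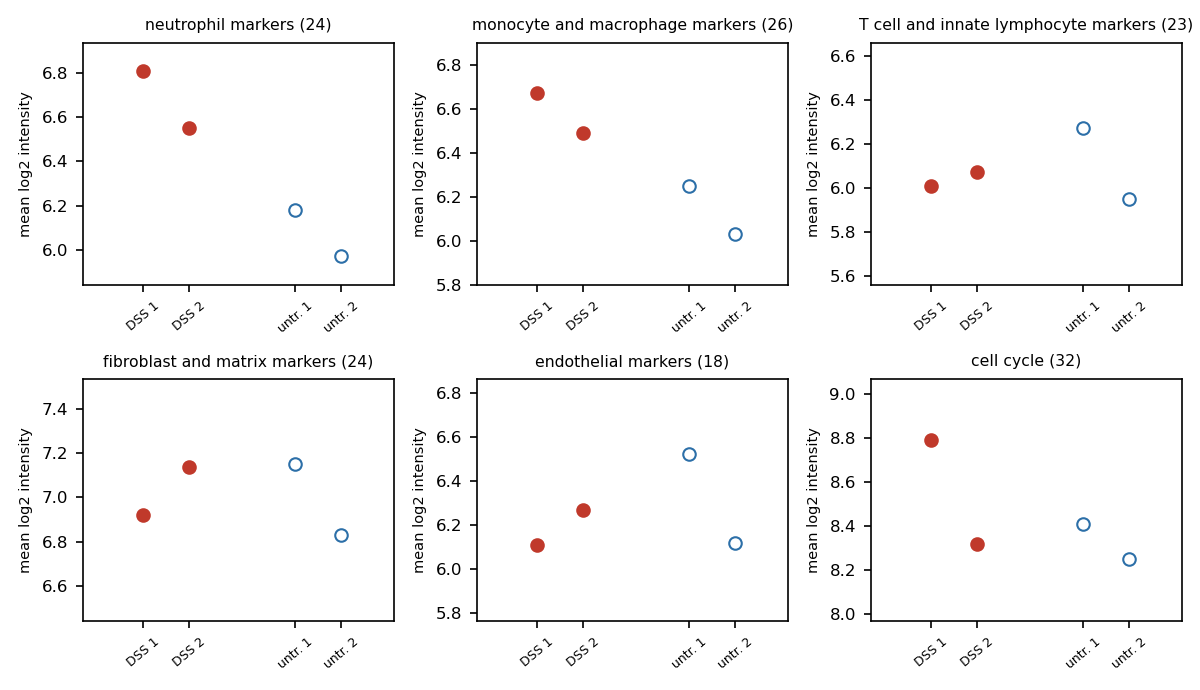
Mean log2 intensity of the measured genes of 6 lists (vertical axis, same span in each panel) in the 2 DSS pools (filled) and the 2 untreated pools (open) with active SIgA only. Neutrophil and macrophage markers were higher in both DSS pools, T cell, fibroblast and endothelial markers were highest in untreated pool 1, and cell cycle genes were highest in DSS pool 1.

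The DSS pools differed from each other in some of the genes that rose. Of the 124 genes called higher, 23 were over 0.5 higher in DSS pool 1 than in DSS pool 2 and 2 were so in the other direction, against 279 and 236 of all 19939 genes. Acod1 (by 1.40), Il1f9 (1.26), Il1b (1.25), Clec4e (1.24), Lilr4b (1.20) and Il1a (1.10) differed most, and Srgn (0.80), Ccl3 (0.76), Clec4d (0.74), Lilrb4a (0.73) and Cybb (0.58) were on the same side. Reg3g differed by 0.02. These genes do not stand for their lists: 15 of 26 monocyte and macrophage markers and 10 of 24 cytokines were higher in DSS pool 1 (median differences 0.08 and -0.03), against 18 of 24 neutrophil markers (0.21) and 9340 of 19939 genes over the array. The 2 genes of the other kind, named after their values were seen, were Ifi205 and Trim15. Of the cell cycle genes all 32 measured were higher in DSS pool 1 than in DSS pool 2, by a median of 0.51. They averaged 8.79 and 8.32 in the DSS pools and 8.41 and 8.25 in the untreated pools, so that DSS pool 2 lay between the untreated ones. Only Ccnd1, cyclin D1, passed among them, at 10.68 and 10.38 after DSS and 9.91 and 9.87 in untreated mice (0.65 ± 0.12, adjusted p = 0.019), and it did not pass without DSS pool 1 or untreated pool 1 (0.221 and 0.0921). The median change of the list was 0.18 (0.29 without untreated pool 1). By contrast all 29 genes of the unfolded protein response were lower in DSS pool 1 than in DSS pool 2, by a median of 0.12. None of these passed between the groups. The pool difference rests on 2 arrays and has no test.

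Transport genes held the single highest change and several of the lowest. Clca4b, one of the chloride channel accessory genes, which has close copies, was at 11.68 and 11.94 after DSS and 7.85 and 8.47 in untreated mice (3.65 ± 0.30, 12.5-fold, adjusted p = 4.74e-05). Best2, a bicarbonate channel of colonic goblet cells, was at 8.09 and 7.88 after DSS and 9.39 in both untreated pools (-1.40 ± 0.18, 2.64-fold lower, adjusted p = 0.00171). Ano1, a calcium-activated chloride channel, was at 9.31 and 9.40 after DSS and 10.43 and 10.46 in untreated mice (-1.09 ± 0.13, 2.13-fold lower, adjusted p = 0.0011). The pools of these channels agreed closely within a group and stood apart between groups. Of 30 genes of ion and water transport 2 rose (6.67%), 2 fell (6.67%) and 26 did not pass. Beside Clca4b, the water channel Aqp4 rose, by 0.58 ± 0.11 (adjusted p = 0.0328). The list's median was -0.20, with 4 of 30 changes above 0 against 7633 of 19939 over all genes. Aqp8, the water channel of surface colonocytes, was at 11.06 and 11.52 after DSS and 11.98 and 12.02 in untreated mice, without overlap but not past the threshold (-0.71 ± 0.20, adjusted p = 0.136). Slc26a3, the chloride and bicarbonate exchanger, was at 11.94 and 12.31 after DSS and 12.36 and 12.48 in untreated mice (-0.29 ± 0.16, adjusted p = 0.466). Aqp4 did not pass without any one of the 4 arrays (0.0577 to 0.291), while Clca4b, Best2 and Ano1 passed in each of these fits.

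The other genes among the 15 lowest changes encode carriers, enzymes, receptors and secreted proteins. Slc37a2, a sugar phosphate exchanger that counts among the absorptive colonocyte markers, was at 9.74 and 9.63 after DSS and 11.11 and 10.89 in untreated mice (-1.31 ± 0.15, 2.48-fold lower, adjusted p = 0.000651). It was the 1 call among 27 absorptive colonocyte markers and among 24 genes of nutrient transport, whose medians were 0.01 and 0.03 (-0.06 and -0.02 without untreated pool 1). Tppp3, a tubulin-binding protein, was at 8.39 and 8.78 after DSS and 10.40 and 10.47 in untreated mice (-1.85 ± 0.24, 3.61-fold lower, adjusted p = 0.00204). Nxpe2, a neurexophilin-domain protein, was at 9.65 and 9.22 after DSS and 11.07 and 11.11 in untreated mice (-1.65 ± 0.20, 3.14-fold lower, adjusted p = 0.0012). In these 3 the groups were more than 1 apart, and each passed in all 4 fits that left out an array. Fut9, a fucosyltransferase that builds the Lewis x glycan, was at 6.02 and 5.46 after DSS and 7.19 and 7.24 in untreated mice (-1.47 ± 0.24, adjusted p = 0.00881). Trpv6, the epithelial calcium channel, was at 6.88 and 6.74 after DSS and 7.73 and 8.00 in untreated mice (-1.06 ± 0.17, adjusted p = 0.00794). Cyp4b1, a cytochrome P450 that oxidises fatty acids and xenobiotics, was at 7.29 and 7.67 after DSS and 8.93 and 8.67 in untreated mice (-1.32 ± 0.19, adjusted p = 0.00551), and was the 1 call among 43 genes of xenobiotic metabolism (median -0.12). The rest of the 15 lowest were Ttr, a carrier of thyroid hormone (-1.35 ± 0.21), Sstr1, a somatostatin receptor (-1.31 ± 0.19), Itih2, a hyaluronan-binding inhibitor chain (-1.25 ± 0.20), Naaladl1, an ileal peptidase (-1.23 ± 0.19), Cpm, a carboxypeptidase (-1.15 ± 0.19) and Pdzd7, a scaffold protein (-1.07 ± 0.19), with adjusted p between 0.00569 and 0.0162. Each of Fut9, Trpv6, Cyp4b1 and these 6 failed to pass in 1 or 2 of the 4 fits that left out an array, with adjusted p there of 0.052 to 0.187, and a DSS pool was among the arrays concerned in every case.

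Lists of epithelial lineages moved little as a whole. Of 21 goblet cell genes only Retnlb passed (median 0.02); Muc2, the main mucin, was at 13.91 and 13.95 after DSS and 13.90 and 13.72 in untreated mice. Of 22 enteroendocrine genes only Tac1, which encodes substance P, passed, at 9.71 and 9.54 after DSS and 7.07 and 8.24 in untreated mice (1.97 ± 0.35, 3.92-fold, adjusted p = 0.0155), and Gcg and Pyy, peptide hormones of the colonic L cell, changed by 0.45 ± 0.17 and 0.58 ± 0.17 (adjusted p = 0.295 and 0.143). No tuft cell gene of 16 passed (median -0.16, and -0.10 without untreated pool 1). Of 22 crypt stem and Wnt target genes 1 fell, none rose and 21 did not pass, with a median of -0.28. Without untreated pool 1 the median was -0.14 and none passed. Ascl2, a transcription factor of crypt stem cells, was at 5.77 and 6.16 after DSS and 6.98 and 6.70 in untreated mice (-0.87 ± 0.18, adjusted p = 0.0406). Lgr5, the receptor that marks these cells, was at 6.99 and 7.29 after DSS and 7.92 and 7.81 in untreated mice, without overlap (-0.72 ± 0.17, adjusted p = 0.0786). Acsl5, an acyl-CoA synthetase, was the 1 call of 28 in fatty acid oxidation, at 9.76 and 9.60 after DSS and 9.13 and 9.26 in untreated mice (0.49 ± 0.10, adjusted p = 0.0433). Tac1, Ascl2 and Acsl5 passed only without untreated pool 2 among the 4 fits that left out an array; their adjusted p in the other 3 ran from 0.052 to 0.369. Without untreated pool 1 the change of Tac1 was 1.39. None of 27 oxidative phosphorylation, 24 sterol synthesis, 25 hypoxia and glycolysis, 29 unfolded protein response, 28 wound repair, 27 tight junction, 24 immediate early and 17 circadian clock genes passed, with medians between -0.16 and 0.22 (-0.14 to 0.16 without untreated pool 1).

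**Figure D4:**
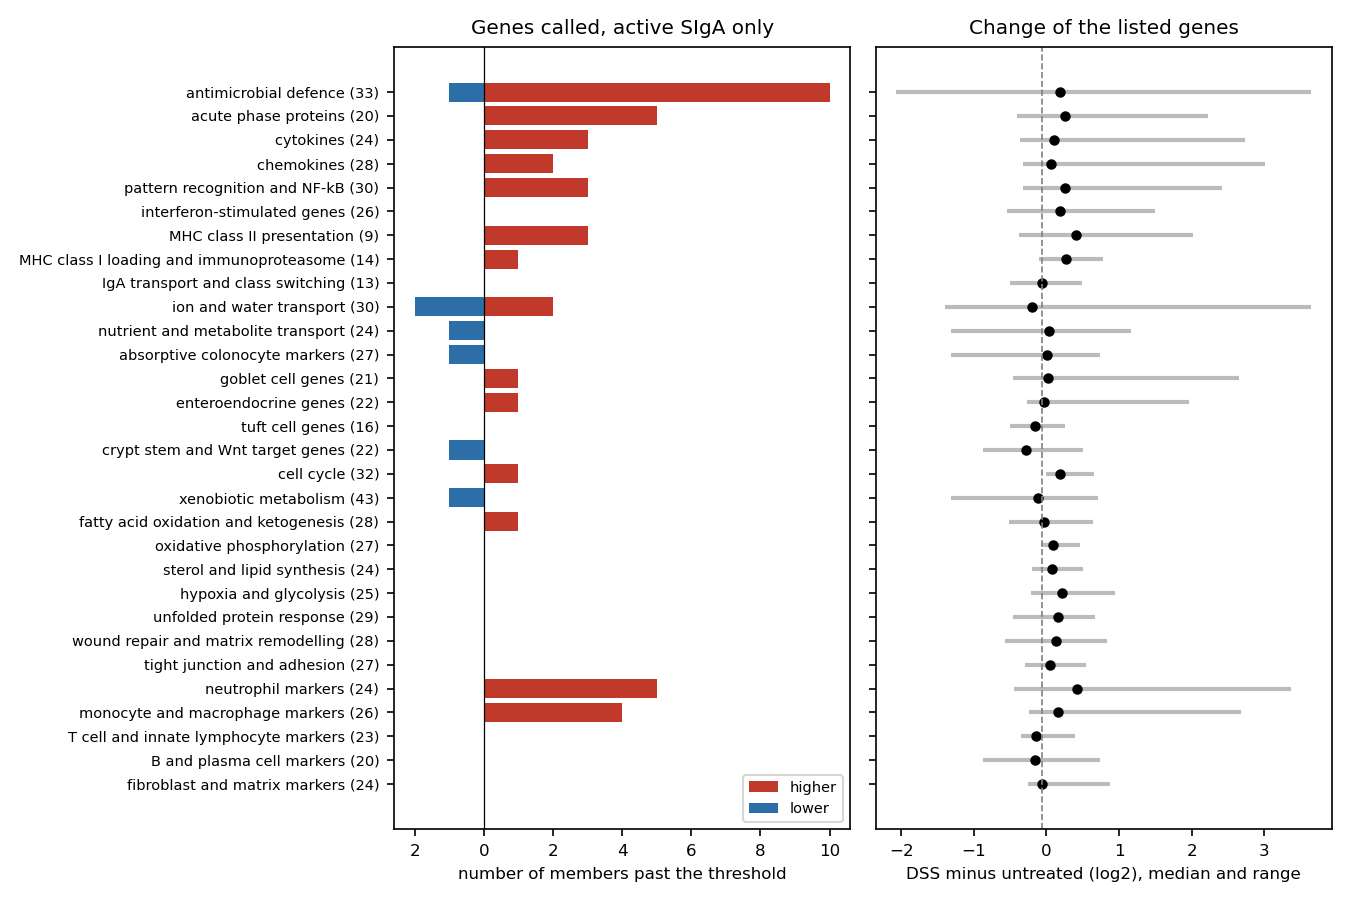
For 30 gene lists (number of measured genes in parentheses), the left panel gives how many passed an adjusted p under 0.05 as higher (right of 0) or lower (left of 0) after DSS with active SIgA only, and the right panel the median (dot) and range (line) of the changes on the log2 scale, with the median of all genes tested, -0.06, dashed. Antimicrobial defence had 10 higher and 1 lower, acute phase and neutrophil lists 5 higher each, and most metabolic and lineage lists 0 or 1. Over all genes tested 0.622% were called higher and 0.376% lower.

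The same genes were then followed in the other 3 groups of mice, whose arrays are separate from these 4. The fit used the same estimate of spread for a gene in all groups, so the calls of the groups are not independent. Of the 199 genes, 167 were also called in the same direction with passive and active SIgA (83.9% of the 199 and 8.3% of the 2011 called there), 136 with passive SIgA only (68.3% and 34.5% of 394) and 110 with neither (55.3% and 49.3% of 223). None was called in the opposite direction. Over all 19939 genes the shares called in those groups were 10.1% (3.56% higher and 6.53% lower), 1.98% (0.893% and 1.08%) and 1.12% (0.491% and 0.627%). All 3 other groups called 85 of them, 2 groups 57, 1 group 44 and no other group 13, and 196 (98.5%) had the same sign in all 3, against 24.9% of all genes. The 13 called nowhere else were 4930444G20Rik, Acsl5, Arrdc3, Ascl2, Cd177, Clca3b, Gch1, Gsdmc2, Ifitm3, Nipsnap3b, Snora30, Sprr2h and Ywhah. Ifitm3, a membrane protein that blocks virus entry, was at 8.94 and 8.82 after DSS and 7.10 and 7.86 in untreated mice (1.41 ± 0.22, adjusted p = 0.00783), against changes of 0.55 with passive and active SIgA, 0.12 with passive only and 0.81 with neither. It did not pass without untreated pool 1 (1.02, adjusted p = 0.0587) or without DSS pool 1 (adjusted p = 0.0926). In none of the 13 did the difference from the mean of the other groups pass (adjusted p of at least 0.817).

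**Figure D5:**
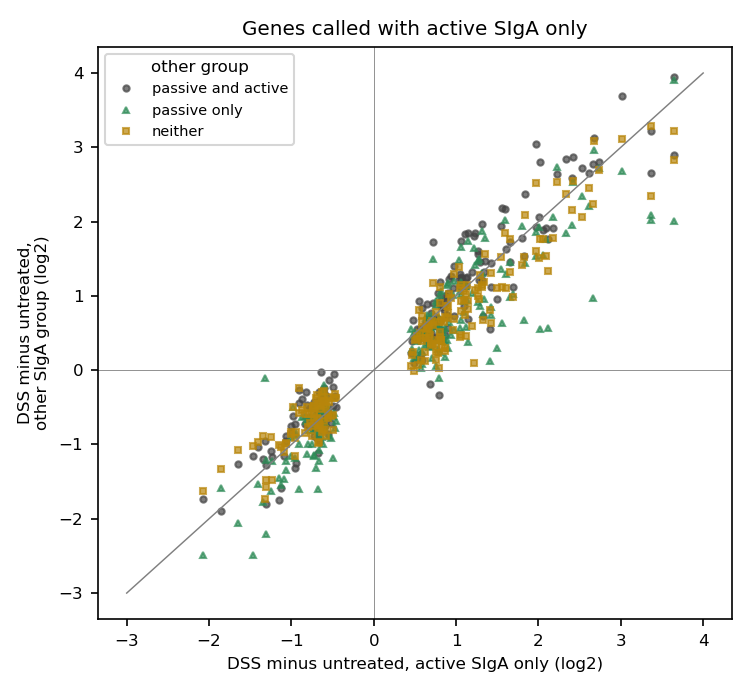
Change after DSS (log2) of the 199 genes called with active SIgA only (horizontal axis) and of the same genes in each of the other 3 groups (vertical axis); the diagonal marks equal values. The points lie along the diagonal on both sides of 0. Those of passive SIgA only lie below the diagonal at, among others, Reg3g (2.01), Reg3b (2.02), Retnlb (0.97), Ifi205 (0.57) and Cd74 (0.56). Other points of that group lie on either side of it.

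No gene passed a test of the difference between the response with active SIgA only and the mean response of the other 3 groups (0 of 19939 with limma, 977 at an unadjusted p under 0.05). The same was so for the differences from passive SIgA only (0, with 1155) and from neither (0, with 740). The median standard error of these differences was 0.174 for the mean and 0.213 for a single group. The 3 genes with the smallest p against the mean were Zfp600 (0.99 ± 0.15, adjusted p = 0.318), Inhba (-0.70 ± 0.14, adjusted p = 0.838) and Ankrd26 (-0.60 ± 0.13, adjusted p = 0.838). Against neither they were Adtrp (0.76 ± 0.19), Ndufa6 (0.58 ± 0.14) and Mep1b (0.68 ± 0.18), all with an adjusted p of 0.924.

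Against passive SIgA only, the smallest p were those of Angptl4, Retnlb and Slpi. Retnlb rose by 2.66 ± 0.24 with active SIgA only and changed by 0.97 ± 0.24 with passive SIgA only, a difference of 1.68 (95% interval 0.96 to 2.41, unadjusted p = 0.000238, adjusted p = 0.75). Its levels after DSS were alike, 11.23 and 11.17 with active SIgA only and 11.17 and 11.65 with passive SIgA only, whereas in untreated mice they were 8.68 and 8.41 against 10.25 and 10.62. Angptl4, an inhibitor of lipoprotein lipase, changed by -0.47 ± 0.12 with active SIgA only and 0.48 ± 0.12 with passive only (difference -0.95, interval -1.32 to -0.58, adjusted p = 0.652). Slpi, an antiprotease of mucosal surfaces, was at 8.05 and 7.77 after DSS and 7.26 and 7.25 untreated with active SIgA only, and at 9.02 and 8.37 after DSS and 6.79 and 6.72 untreated with passive SIgA only (difference -1.28, interval -1.85 to -0.72, adjusted p = 0.75). These intervals are for single genes and are not adjusted for the number of genes.

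The lectins had a similar layout. Reg3b in untreated mice was at 9.76 and 9.84 with active SIgA only, below the 6 untreated arrays of the other groups, which ran from 10.42 to 11.14. After DSS it was at 13.21 and 13.14, within the 12.60 to 13.44 of the others. Its rise was 1.03 ± 0.27 larger than the mean of the other groups (95% interval 0.45 to 1.62, adjusted p = 0.838). Reg3g was at 8.59 and 8.76 in untreated mice, below the 9.47 to 10.71 of the other groups, and at 12.33 and 12.30 after DSS, within 11.79 to 13.11 (difference in rise 1.06 ± 0.41, interval 0.17 to 1.95, adjusted p = 0.838). For Clca4b the interval of the difference was -0.78 to 0.69 and for Nos2 -0.20 to 0.56.

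Against passive and active SIgA, 214 genes passed (1.07%), 204 with a higher (1.02%) and 10 with a lower change (0.0502%) in active SIgA only. Of them 206 changed by less than 0.5 with active SIgA only, and 3 were also among its 199 calls, namely 4930444G20Rik, Nckap1l and Serpina3n. In 200 the 2 untreated arrays with passive and active SIgA lay above all 14 other arrays of the study, 204 were below the median level of all genes, and 173 were chemosensory receptor or keratin-associated genes. The mean level of the 1275 genes of that list was 5.26 and 5.41 in those 2 arrays, 4.87 in untreated pool 1 with active SIgA only, and 4.45 to 4.71 in the other 13. The count depended on single arrays. It fell in some of the fits that left out 1 array of these 2 groups of mice and rose in others. When the dimmest 30% of genes were left out, 5 genes passed, 1700054O19Rik, Dppa2, Mir680-2, Nyx and Olfr1152. Serpina3n rose by 0.72 with active SIgA only and by 1.72 with passive and active SIgA (difference -1.0 ± 0.20, adjusted p = 0.033). The level of H2-DMa, which loads class II molecules, was 7.32 and 6.99 after DSS and 6.73 and 6.79 untreated with active SIgA only, and 7.54 and 7.84 after DSS and 6.21 and 6.32 untreated with passive and active SIgA (difference -1.03 ± 0.22, adjusted p = 0.0479). Of the 8 fits that left out 1 array of these 2 groups of mice, Serpina3n passed in 2 and H2-DMa in 1.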

How the data were processed

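Colonic epithelial RNA was hybridised to 16 Affymetrix whole-transcript arrays, 2 pools for each of 8 groups. The deposited values are log2 intensities made with RMA, per the submitters' processing notes, which give no version. Of 35557 probe sets, 21789 named 1 gene, 1621 several and 12147 none. Only the first kind was used, and 998 genes had several, of which the brightest on average stood for the gene. All 16 arrays were fitted as 8 group means with limma 3.58.1 in R 4.3.3 (8 residual and 5.03 prior degrees of freedom), with two-sided tests, Benjamini-Hochberg adjustment over 19939 genes and a threshold of 0.05. Changes are DSS minus untreated ± standard error. The fit was also run on simulated data with independent normal values and no shift of a whole array. It therefore says nothing on arrays that stand apart. Lists and members were chosen with earlier results of these data known. Of 911 listed symbols 844 were measured. Named genes were the 15 highest and 15 lowest calls without overlap of the pools (unnamed, small RNA and chemosensory symbols left aside), up to 6 genes of each list and defining markers, and up to 10 a side, or the 3 smallest p, for each difference between groups. All list members that passed, and the few genes named beside small counts, were added after their values were seen. The number of arrays limits the precision. Raw intensities were not analysed here.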

Additional observations from a re-analysis of the deposited data

Results flagged for a closer look

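The following differed between groups of mice by a test of the difference itself (limma, adjusted p under 0.05). The change after DSS with active SIgA only differed from that with passive and active SIgA in 214 genes. The 10 named with a higher change were Zfp600 (difference 3.01), Zfp980 (2.01), Mup5 (1.80), Retnla (1.69), Scgb2b2 (1.49), Defb4 (1.44), Mucl2 (1.32), Speer3 (1.32), Macrod2 (1.32) and Nyx (1.31). In each of these the 2 untreated arrays with passive and active SIgA were the high ones, and the change with active SIgA only lay between -0.41 and 0.22. Zfp600, a zinc finger gene, was at 2.58 and 2.62 after DSS and 2.64 and 2.50 untreated with active SIgA only, and at 2.82 and 2.44 after DSS and 5.65 and 5.57 untreated with passive and active SIgA. Those with a lower change were Cd79a (-1.44), H2-DMa (-1.03), Serpina3n (-1.0), Inhba (-0.98), Cyp2a22 (-0.98), Ankrd26 (-0.96), Rpl10l (-0.85) and Rab40b (-0.74). Cd79a, part of the B cell receptor, was at 4.64 and 4.91 after DSS and 5.99 and 5.32 untreated with active SIgA only, and at 5.75 and 5.28 after DSS and 5.09 and 4.82 untreated with passive and active SIgA. Inhba, an activin subunit, was at 6.36 and 6.08 after DSS and 6.19 and 6.04 untreated with active SIgA only, and at 6.89 and 6.81 after DSS and 5.80 and 5.72 untreated with passive and active SIgA. Of these 18 genes, Zfp600, Mup5, Scgb2b2, Defb4, Mucl2 and Nyx passed in all alternatives in which they were tested. The other 12 each failed in some: among the 8 fits that left out 1 array, Inhba passed in 6, Ankrd26 in 5, Speer3 in 4, Zfp980, Retnla and Cd79a in 3, Macrod2, Serpina3n and Cyp2a22 in 2, H2-DMa in 1, and Rpl10l and Rab40b in 0. With the dimmest 30% of genes left out, 7 of the 18 were tested and 1, Nyx, passed. With array weights 7 passed. The cause was not tested.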

How the results depend on the processing

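No count of calls or single called gene changed direction under the alternatives run. Leaving out 1 of the 4 arrays could not reverse a called gene, since its pools did not overlap. Medians of several lists without calls did change sign without untreated pool 1. These were interferon-stimulated genes (0.19 against -0.06 without it), IgA transport (-0.06 against 0.13) and the 6 lists of lymphoid, stromal, vascular and neural cells. Those of absorptive markers and nutrient transport, with 1 call each, changed sign too. The 199 calls of the DSS effect became 329 with a trend in the prior variance, 319 with quantile normalization of the genes tested, 68 with array weights, 33 when only the 4 arrays were fitted, and 67 without the 3 untreated arrays that stood apart (an alternative chosen after seeing the data). Leaving out 1 of the 4 arrays gave 64 to 672. The counts with a fold change of at least 1.5, median centring, all probe sets, the dimmest 30% of genes left out, and no untreated group with passive and active SIgA were 172, 180, 192, 297 and 144. With the replicate block 280 genes passed, including all 199. The labels do not say whether the replicate numbers pair the samples, and the values do not settle it. Deviations of same-numbered arrays correlated between -0.30 and 0.67 (median 0.08), with 14 of 28 pairs of groups over 0.1. Of the 65 called genes chosen for naming, 65 still passed with the block and with the trend, 37 without untreated pool 1, 27 without DSS pool 1 and 22 with only the 4 arrays. The difference from the mean of the other groups gave 1 gene under median centring (Zfp600, 1.10, adjusted p = 0.034), and 0 to 1 when an array was left out (Srsy without untreated pool 2, or Zfp600 without DSS pool 1, of passive and active SIgA). Those from passive SIgA only and from neither gave 0 in all alternatives run. The 214 of the difference from passive and active SIgA became 511 with median centring, 356 with quantile normalization, 78 with array weights, 5 with the dimmest 30% of genes left out (fewer genes tested), and 72 to 304 when an array was left out. The cause of these shifts was not tested.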

Other observations

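Genes outside the lists, named after their values were seen, are given here as single genes and stand for no group. Socs3, a feedback inhibitor of STAT signalling, was at 9.33 and 8.95 after DSS and 8.00 and 8.04 in untreated mice (1.12 ± 0.14, adjusted p = 0.00198), Osmr, the oncostatin M receptor, rose by 1.06 ± 0.21, Tnfrsf1b, a receptor of TNF, by 0.89 ± 0.13, and Il4ra, a receptor chain for interleukin-4 and interleukin-13, by 0.82 ± 0.13. Tifa, an adaptor that links a bacterial sugar metabolite to NF-kB, was at 10.41 and 10.66 after DSS and 9.11 and 9.43 in untreated mice (1.27 ± 0.14, adjusted p = 0.000511). Ripk3 and Mlkl, a kinase and its substrate that carry out necroptosis, rose by 0.90 ± 0.15 (adjusted p = 0.00965) and 0.82 ± 0.16 (adjusted p = 0.0252). Socs3 and Tifa passed whichever of the 4 arrays was left out. Osmr and Mlkl passed only without untreated pool 2, Ripk3 did not pass without untreated pool 1 or DSS pool 2 (0.104 and 0.112), Tnfrsf1b not without DSS pool 2 (0.058), and Il4ra not without either DSS pool (0.057 and 0.0591).

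Further genes picked in the same way have known roles in metabolism. Mfsd2a, a lysophospholipid carrier, was at 9.52 and 9.78 after DSS and 7.77 and 7.94 in untreated mice (1.80 ± 0.17, adjusted p = 0.000206), and Aldh1a3 and Dhrs9, which act in retinoic acid synthesis, rose by 1.06 ± 0.19 and 1.14 ± 0.20 (adjusted p = 0.0146 and 0.0156). Pck1, a gluconeogenic enzyme, was at 9.61 and 9.37 after DSS and 10.67 and 10.32 in untreated mice (-1.0 ± 0.14, adjusted p = 0.004), and Gpam, which starts triglyceride synthesis, fell by 0.68 on the log2 scale (adjusted p = 0.00718). Mfsd2a and Pck1 passed in all 4 fits that left out an array. Gpam passed only without untreated pool 2 (0.0214, against 0.0524 to 0.072). Aldh1a3 did not pass without untreated pool 1 or either DSS pool (0.0506 to 0.136), and Dhrs9 not without untreated pool 1 or DSS pool 2 (0.144 and 0.15).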
